A study of Homo sapiens with 32 samples.

Results

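The peaks of RNA N6-methyladenosine (m6A) at 10 genes of the NF-kB pathway were examined: the Rel factor genes NFKB1, NFKB2, RELA and RELB, the inhibitor genes NFKBIA and TNFAIP3, and the cytokine genes CXCL8, IL6, CXCL1 and CCL2. The genes were chosen by name, and a peak was counted for a gene when it overlapped the RefSeq gene body of GRCh38.p14 by at least 1 bp. Of 474004 peaks in 16 libraries, 224 lay in the 10 genes, 91 of them in 786-O and 133 in RPTEC. The 10 genes are part of 20037 protein-coding genes in the gene table, of which 13420 held a peak in at least 1 library. Methylated RNA immunoprecipitation sequencing (MeRIP-seq), in which fragmented RNA is pulled down with an antibody to m6A, was run in 2 human cell lines. 786-O is a clear cell renal cell carcinoma line, and RPTEC is a renal proximal tubule line immortalised with hTERT. Each had the unmodified WT line, the CRISPR knockout clones SETD2KO-1 and SETD2KO-2, and SETD2KO-1R, which is SETD2KO-1 given back a full-length FLAG-tagged SETD2 transgene and then cloned. Each of these lines had 2 replicate libraries, no line was treated, and every knockout and rescue line was 1 clone. SETD2 writes the histone mark H3K36me3. Libraries of the 2 lines with SETD2, WT and SETD2KO-1R, are grouped as SETD2-expressing, which gave 4 of these and 4 SETD2KO libraries per cell line. Nothing in the labels says that replicates of a line came from separate cultures, so p-values measure only the spread between these libraries, which may be technical, and SETD2 status differs between clones rather than between libraries of a clone.

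NF-kB is a family of dimeric transcription factors held inactive in the cytoplasm by IkB proteins. Signals from the TNF receptor, interleukin-1 receptor and Toll-like receptors activate the IkB kinase, which marks the inhibitor for degradation so that the dimer enters the nucleus and switches on cytokine and chemokine genes. NFKBIA and TNFAIP3 are themselves targets and shut the response down. m6A is laid down on nascent RNA by the METTL3 and METTL14 complex, and its readers act on splicing, decay and translation. Transcripts of cytokines and of their regulators are among those whose stability m6A is known to affect.

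The lists held 25710 to 39670 peaks in 786-O and 19249 to 31207 in RPTEC. They give no read counts, so the depth of each library is unknown, and the matched Input libraries were not analysed here. A peak needs both a transcript and its methylation, so less RNA and less methylation of a gene cannot be told apart, nor can fewer cells and less RNA per cell. The lists of the 2 cell lines carry different experiment names, so cell line and preparation cannot be told apart. Of 24 marker genes, 6 had peaks in all 16 libraries and 9 had none. The renal lineage genes PAX8 and PAX2 and the epithelial keratin genes KRT8 and KRT18 were called in all 16, while of the other epithelial markers CDH1 was called in none and EPCAM in 0 libraries of 786-O and 2 of RPTEC. Of the proximal tubule markers, GGT1 was called in all 16 libraries, with 42 peaks in 786-O and 13 in RPTEC. ANPEP was called in 2 libraries of 786-O and 8 of RPTEC, CDH16 in 2 and 1, CUBN in 1 and 0, and LRP2, AQP1 and SLC34A1 in none. Of the markers of clear cell renal cell carcinoma, VEGFA was called in all 16, ANGPTL4 in 5 and 4, and CA9 in none. Of 8 markers of immune, endothelial and stromal cells, 4 (PTPRC, CD14, PECAM1 and VWF) had no peak. CD68 was called in 8 libraries of 786-O and 7 of RPTEC, PDGFRB in 5 and 4, CDH5 in 0 and 4 and COL1A1 in 1 and 6. The 8 genes summed to 1 to 5 peaks a library in 786-O and 2 to 6 in RPTEC. The SETD2 gene body held 4 to 10 peaks without and 7 to 10 with intact or restored SETD2 in 786-O, and 4 to 6 and 7 to 11 in RPTEC, where the states did not overlap. In RPTEC 1.41% of 12185 genes were likewise lower in SETD2KO without overlap. Peaks remained in every SETD2KO library and the lists do not show the edited site, so these numbers do not check the knockout.

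The factor genes and TNFAIP3 carried peaks in most libraries of both cell lines, while the cytokine genes carried few. NFKB1, RELA and TNFAIP3 had a peak in all 16 libraries, NFKB2 in 15, RELB in 12 and NFKBIA in 11. CXCL1 had a peak in 6 libraries, IL6 in 2 and CCL2 in 1, all of them RPTEC, and CXCL8 had none. Of all protein-coding genes, 23.1% had a peak in all 16 libraries and 33.0% had none. The cytokine genes are short, from 1916 bp for CXCL1 to 4799 bp for IL6, and the NFKBIA gene body of 3237 bp lies within this range. The part of gene length in these calls was not tested.

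**Figure D1:**
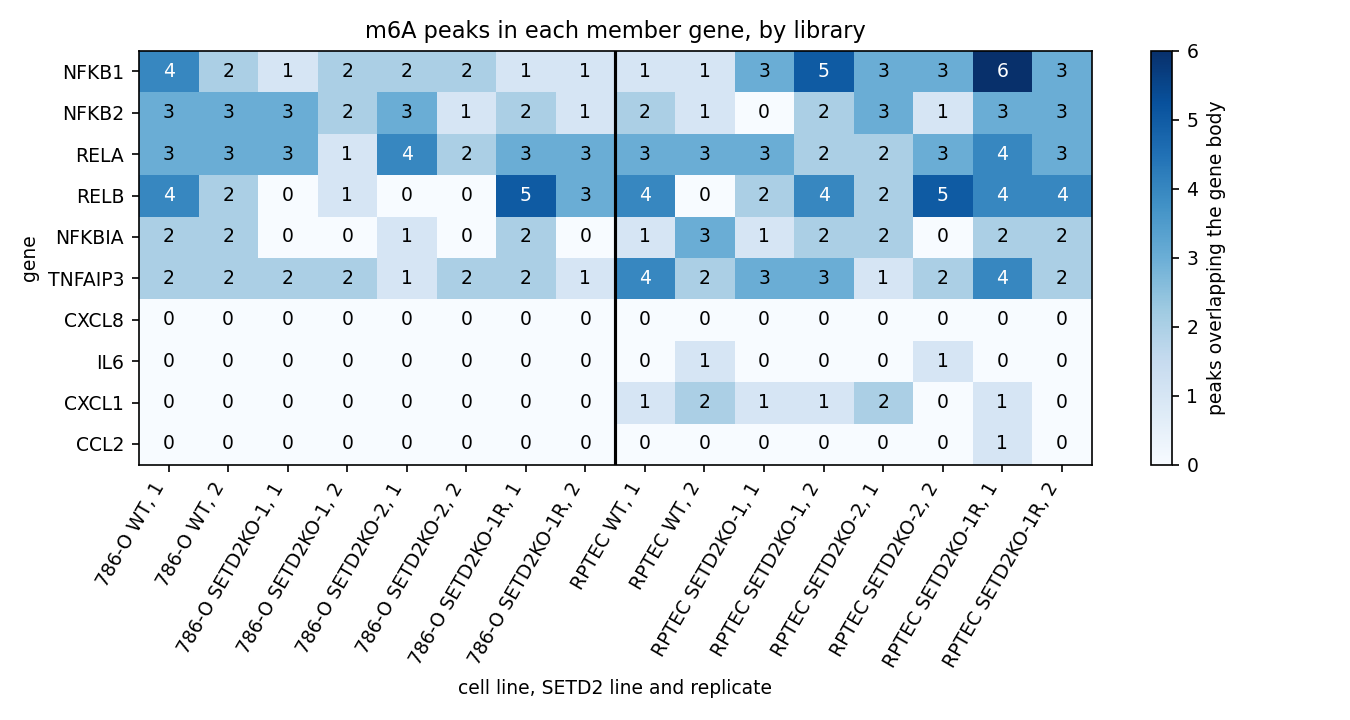
Number of peaks overlapping each gene body (rows) in each of the 16 libraries (columns, 2 replicates per line), with 786-O left of the black line and RPTEC right of it; darker cells hold more peaks. RELB stands at 0 or 1 in the 4 SETD2KO libraries of 786-O and at 2 to 5 in the 4 SETD2-expressing ones, and CXCL1 stands at 0 in all 8 libraries of 786-O.

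Peaks at NFKB1, NFKBIA, IL6 and CXCL1 reached past the annotated start of the gene into the promoter. The stretch between the outermost peak edge and the gene start is printed for these 4 genes, since peaks of several libraries lie over it and each stretch holds the 10-base NF-kB (kappaB) consensus, the motif that Rel dimers bind. Sequences come from the RefSeq promoter windows of GRCh38.p14, 250 bases before to 50 after a start, and are written 5′ to 3′ on the gene's strand. Capitals mark a match to the consensus on either strand. The CXCL1 stretch is chr4:73869181-73869392 on the + strand, that of IL6 is chr7:22727116-22727199 on the + strand, that of NFKBIA is chr14:35404750-35404904 on the - strand and that of NFKB1 is chr4:102501285-102501358 on the + strand.
CXCL1: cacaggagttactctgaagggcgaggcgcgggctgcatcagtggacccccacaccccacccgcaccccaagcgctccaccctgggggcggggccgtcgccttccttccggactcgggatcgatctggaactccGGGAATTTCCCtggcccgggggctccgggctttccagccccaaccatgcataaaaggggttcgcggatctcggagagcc
IL6: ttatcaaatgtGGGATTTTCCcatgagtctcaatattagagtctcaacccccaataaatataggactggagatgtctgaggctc
NFKBIA: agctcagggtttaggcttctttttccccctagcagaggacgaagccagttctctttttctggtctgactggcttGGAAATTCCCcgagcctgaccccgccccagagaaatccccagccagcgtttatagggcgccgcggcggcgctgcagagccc
NFKB1: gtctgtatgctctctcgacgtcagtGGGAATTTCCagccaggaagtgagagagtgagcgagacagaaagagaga

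The motif began 79 bp before the start of CXCL1, where matches on both strands overlapped, 73 bp before IL6, 81 bp before NFKBIA and 49 bp before NFKB1. The peak covered the whole motif in 4 of the 5 RPTEC libraries that called this CXCL1 region, in both RPTEC libraries that called IL6, and in all 3 libraries of 786-O and both of RPTEC that called the NFKBIA region. Of the libraries that called the NFKB1 region, the motif was covered in 2 of 3 in RPTEC and in 0 of 1 in 786-O. Over all windows of the table, 11.3% of 35116 held the motif, against 7 of the 12 windows listed for 8 of the genes, which are known for it, so that their count is no finding. RELB and CCL2 had no window in the table. The window of CXCL8 did not hold these letters. GGAC on the gene's strand, the common core of m6A sites, was in 66.3% of all windows, 2 times in the CXCL1 stretch, 1 time each in those of IL6 and NFKBIA and not in that of NFKB1. A match is a description of the letters and not a measured binding or methylation site.

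Between the cell lines, no gene of the 10 passed the test after adjustment over all genes, and the lowest p was that of CXCL1. Peaks per gene were compared between the 8 libraries of 786-O and the 8 of RPTEC by a two-sided exact permutation test with Benjamini-Hochberg adjustment over 13420 genes. Of these genes, 3.44% had more peaks in 786-O and 1.92% fewer at an adjusted p under 0.05, and 0 of the 9 NF-kB genes tested were among either. Before adjustment, 1 of the 9 was under 0.05, CXCL1, beside 18.1% of all genes. By Fisher's exact test of the libraries with a peak, 0.425% of genes were called in more libraries of 786-O and 0.693% in fewer, and again 0 of the 9, with CXCL1 the only 1 under 0.05 before adjustment, beside 7.44% of all genes. The mean was lower in 786-O for 8 of the 9 genes, NFKB2 excepted, and their median difference was -0.75 peaks per library, beside 0.25 over all tested genes, of which 28.9% were lower in 786-O. IL6, CXCL1 and CCL2 had peaks in RPTEC only, which fixes their direction. The 10 genes held 7 to 18 peaks a library in 786-O and 13 to 25 in RPTEC. The lists held 32818 ± 4395 peaks in 786-O and 26433 ± 4040 in RPTEC (SD, n = 8), and the part of list length was not tested.

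Among the Rel factor genes, NFKB1 encodes the p105 precursor of p50, the partner of RELA in the classical dimer. It had 4 and 2 peaks in WT, 1 and 2 in SETD2KO-1, 2 and 2 in SETD2KO-2 and 1 and 1 in SETD2KO-1R of 786-O. In RPTEC it had 1 and 1 in WT, 3 and 5 in SETD2KO-1, 3 and 3 in SETD2KO-2 and 6 and 3 in SETD2KO-1R. WT therefore held the highest number in 786-O and the lowest in RPTEC, and in RPTEC the rescue lay with the knockouts rather than with WT. The mean was 1.88 ± 0.99 (SD, n = 8) in 786-O and 3.12 ± 1.73 (SD, n = 8) in RPTEC (exact permutation p = 0.141, adjusted p = 0.470). SETD2KO and SETD2-expressing libraries overlapped in both cell lines, with means of 1.75 ± 0.50 and 2 ± 1.41 in 786-O (exact permutation p = 1, n = 4 and 4) and 3.5 ± 1 and 2.75 ± 2.36 in RPTEC (exact permutation p = 0.629, n = 4 and 4). Against WT alone, without the rescue, the 4 SETD2KO libraries of RPTEC were all above both WT libraries, by 2.50 peaks on average (exact permutation p = 0.0667, the smallest that 4 against 2 libraries can give). Of all genes in that comparison, 7.48% did not overlap.

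NFKB2 encodes the p100 precursor of p52, the product of the non-canonical arm. Its peaks ranged from 1 to 3 with a median of 2.5 in 786-O and from 0 to 3 with a median of 2 in RPTEC, where SETD2KO-1 replicate 1 had none. The groups overlapped in every comparison, with 2.25 peaks on average in both SETD2 states of 786-O, and 1.5 ± 1.29 in SETD2KO against 2.25 ± 0.96 in SETD2-expressing RPTEC (exact permutation p = 0.571, n = 4 and 4). RELA encodes p65, the main activating subunit. It had 1 to 4 peaks and a median of 3 in 786-O and 2 to 4 with a median of 3 in RPTEC. All 4 SETD2-expressing libraries of 786-O had 3 peaks of RELA, and the SETD2KO libraries had 3, 1, 4 and 2 (exact permutation p = 0.714, n = 4 and 4). In RPTEC the means were 2.50 ± 0.58 with SETD2 knocked out and 3.25 ± 0.50 with SETD2 (exact permutation p = 0.286, n = 4 and 4).

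RELB, the partner of p52 in the non-canonical dimer, was the 1 gene of the 10 whose SETD2KO and SETD2-expressing libraries did not overlap, and only in 786-O. There it had 4 and 2 peaks in WT, 0 and 1 in SETD2KO-1, 0 and 0 in SETD2KO-2 and 5 and 3 in SETD2KO-1R. Both knockout clones were thus below both SETD2-expressing lines, and the rescue was at the level of WT or above it. The mean was 0.25 ± 0.50 without SETD2 and 3.50 ± 1.29 with it (n = 4 and 4), a difference of -3.25 peaks per library (two-sided exact permutation p = 0.0286, adjusted p = 1). This p is the smallest that 4 against 4 libraries can give. With 301 of 12430 genes at it, no gene passed the adjustment. A RELB peak was present in 1 of 4 libraries without SETD2 and in 4 of 4 with it (Fisher's exact p = 0.143). Of 12430 genes with a peak in 786-O, 0.901% were lower in SETD2KO without overlap and 1.52% higher, against 1 and 0 of the 6 genes of the pathway with a peak there. In RPTEC, RELB had 4 and 0 peaks in WT, 2 and 4 in SETD2KO-1, 2 and 5 in SETD2KO-2 and 4 and 4 in SETD2KO-1R, with the groups overlapping at means of 3.25 ± 1.5 and 3 ± 2 (exact permutation p = 1, n = 4 and 4). In that cell line 1.41% of 12185 genes were lower and 1.01% higher in SETD2KO without overlap, and 0 of the 9 genes with a peak there. The effects of SETD2 status on RELB in the cell lines differed by -3.50 peaks, which did not pass the test of the difference itself (exact permutation within cell lines, p = 0.0718, adjusted p = 1).

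The groups at RELB no longer separated once low-scoring peaks were left out. With only the upper 50% of peaks by score kept in each library, the difference was -1 (exact permutation p = 0.257) and with the same number of peaks in every library it was -1.5 (exact permutation p = 0.143), and in both settings the groups overlapped. The lists of 786-O held 28934 to 39670 peaks without SETD2 and 25710 to 36401 with it, and these ranges overlapped. The summed peaks of the 8 markers of other cell types were 1 to 2 in 786-O without SETD2 and 1 to 5 in 786-O with it, and their part in the result was not tested.

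**Figure D2:**
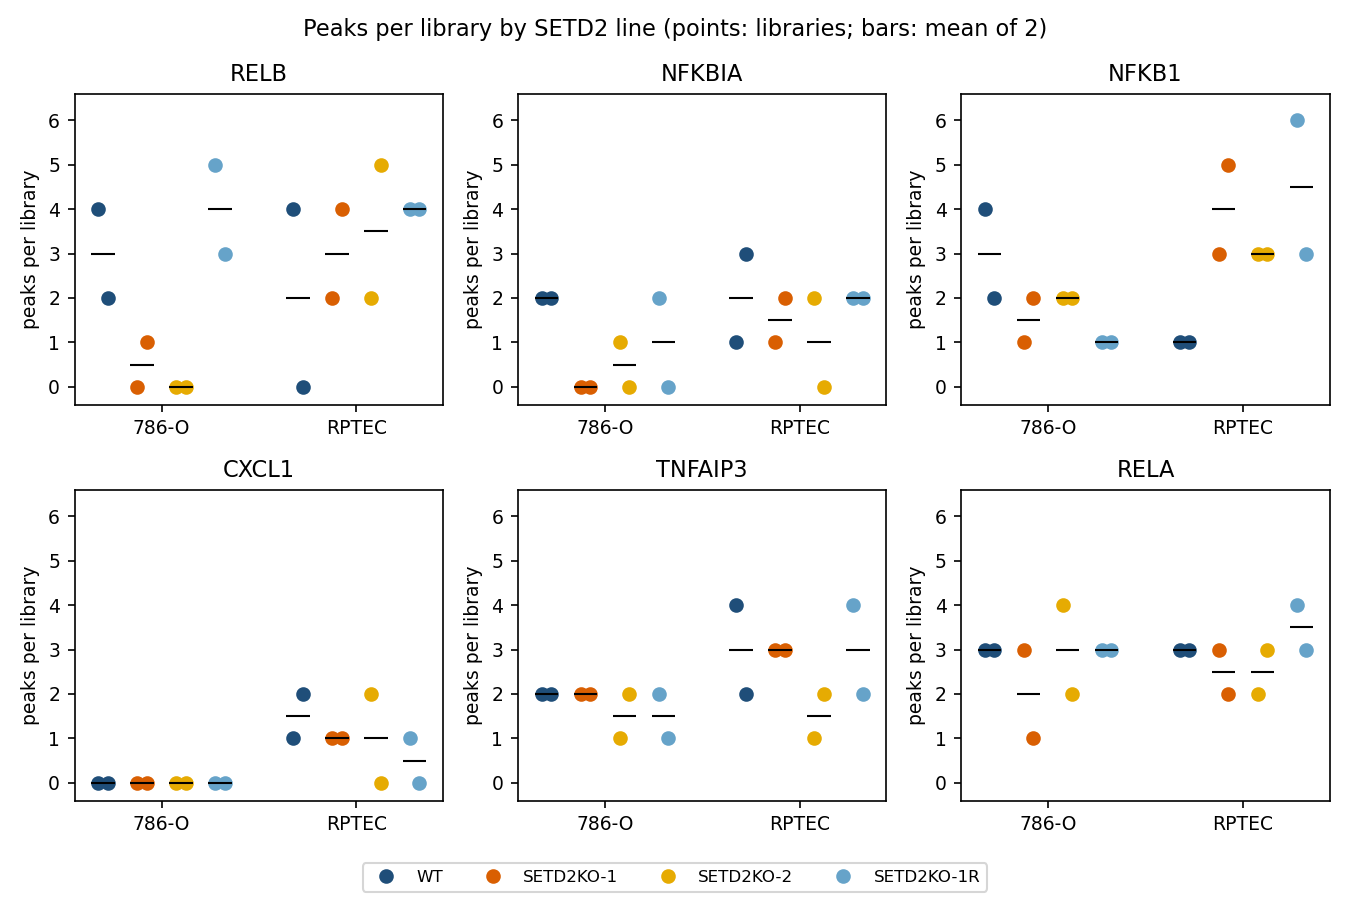
Peaks per library (y axis) of 6 genes by cell line and SETD2 line (colours); each point is a library and each bar the mean of 2. RELB is at 0 to 1 in both knockout clones of 786-O and at 2 to 5 in WT and the rescue, whereas its groups overlap in RPTEC; CXCL1 is at 0 in every 786-O line.

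NFKBIA encodes IkBα, the inhibitor that retains NF-kB in the cytoplasm and is resynthesised on activation. In 786-O it had 2 and 2 peaks in WT, 0 and 0 in SETD2KO-1, 1 and 0 in SETD2KO-2 and 2 and 0 in SETD2KO-1R. The knockout clones were below WT, and the rescue libraries fell 1 on each side. The mean was 0.25 ± 0.50 without SETD2 and 1.5 ± 1 with it (exact permutation p = 0.143, n = 4 and 4), and the groups met at 0. They did not overlap without SETD2KO-1R replicate 2 (difference -1.75, exact permutation p = 0.0571), or against WT only (difference -1.75, exact permutation p = 0.0667). Both settings leave out SETD2KO-1R replicate 2, the SETD2-expressing library of 786-O without a peak, so the separation follows from its removal. Of all genes, 3.51% did not overlap without that library and 8.87% against WT only. In RPTEC NFKBIA had 1 and 3 peaks in WT, 1 and 2 in SETD2KO-1, 2 and 0 in SETD2KO-2 and 2 and 2 in SETD2KO-1R, and the SETD2 states overlapped (exact permutation p = 0.486, n = 4 and 4). Between the cell lines, 4 libraries of 786-O and 7 of RPTEC had a peak (Fisher's exact p = 0.282), with means of 0.88 ± 0.99 and 1.62 ± 0.92 (exact permutation p = 0.211, n = 8 and 8).

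TNFAIP3 encodes A20, a ubiquitin-editing enzyme that limits signalling upstream of the IkB kinase. It had 1 to 2 peaks with a median of 2 in 786-O and 1 to 4 with a median of 2.5 in RPTEC, with means of 1.75 ± 0.46 and 2.62 ± 1.06 (exact permutation p = 0.0979, adjusted p = 0.385, n = 8 and 8). In 786-O both SETD2 states had a mean of 1.75 ± 0.50, and in RPTEC the means were 2.25 ± 0.96 without SETD2 and 3 ± 1.15 with it (exact permutation p = 0.514, n = 4 and 4). TNFAIP3 was thus called in every library of both SETD2 states, while NFKBIA in 786-O ranged from no peak to 2.

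Of the cytokine genes, CXCL1, which encodes a chemokine for neutrophils, was called in RPTEC only. It had no peak in any of the 8 libraries of 786-O, and in RPTEC it had 1 and 2 in WT, 1 and 1 in SETD2KO-1, 2 and 0 in SETD2KO-2 and 1 and 0 in SETD2KO-1R. The difference was -1 peak per library (exact permutation p = 0.00699, adjusted p = 0.0813, n = 8 and 8), and 0 of 8 against 6 of 8 libraries had a peak (Fisher's exact p = 0.00699, adjusted p = 0.175). Each of the 2 RPTEC libraries without a peak decided the adjusted call: without SETD2KO-2 replicate 2 the adjusted p was 0.0341 and without SETD2KO-1R replicate 2 it was 0.0309. Of the 8 markers of other cell types, CDH5 and COL1A1 were called in more libraries of RPTEC, CD68 and PDGFRB in more of 786-O and the other 4 in none, and their part in the result was not tested. The SETD2 states of RPTEC both had a mean of 1 ± 0.82 peaks of CXCL1 (n = 4 and 4).

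IL6, the gene of interleukin-6, had 1 peak in RPTEC WT replicate 2 and 1 in RPTEC SETD2KO-2 replicate 2, 1 library of each SETD2 state, and none elsewhere (Fisher's exact p = 0.467 between cell lines). CCL2, the gene of a chemokine for monocytes, had a single peak, in RPTEC SETD2KO-1R replicate 1. CXCL8, the gene of interleukin-8, had no peak in any library. By SETD2 status in RPTEC, IL6 had a mean of 0.25 ± 0.50 peaks in both states and CCL2 0 and 0.25 ± 0.50 (exact permutation p = 1 for each, n = 4 and 4). Peak lists hold only what passed the caller, so the absence of a peak sets no upper limit on methylation.

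When peaks of all libraries were merged, the 10 genes held 46 of 99514 regions. RELB had 15, NFKB1 had 11, RELA 6, NFKB2 4, NFKBIA and TNFAIP3 3 each, CXCL1 2, and IL6 and CCL2 1 each. Per length, the regions covered 47.7% of the CXCL1 gene body, 37.9% of NFKB2, 34.3% of NFKBIA and 33.2% of RELA, but 17.5% of RELB, 15.4% of TNFAIP3 and 4.66% of NFKB1. Of the 46 regions, 21.7% were called in 1 library alone, against 37.2% of all regions, and 21.7% in 8 or more libraries, against 20.9%. Of the regions of RELB and NFKB1, 5 of 15 and 4 of 11 were called in 1 library, shares near that of all regions, and 1 region of each was called in 8 or more.

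The most recurrent regions lay in NFKB2, RELA and TNFAIP3, each called in 15 libraries. Of the 46 regions, 6.52% were called in 15 or 16 libraries, near the 6.26% of all regions. The NFKB2 region (chr10:102398574-102400124) began 4464 bp from the gene start and was missing in RPTEC SETD2KO-1 replicate 1. The RELA region (chr11:65660256-65661015) began 2842 bp from the start, and a further RELA region at 8444 bp was called in 13 libraries with a median percentile of 87.8. The TNFAIP3 region (chr6:137878250-137879331) was called in 7 libraries of 786-O and 8 of RPTEC, and another, at 14434 bp, in 7 and 7. These regions were shared by the cell lines and by the SETD2 states. NFKB1 had 1 region of this kind (chr4:102570580-102571971), called in 6 libraries of 786-O and 7 of RPTEC. In 786-O it was present in WT and both knockout clones and absent from both rescue libraries. This pattern was picked out of the 46 regions, and no share of all regions is given for it. By Fisher's exact test 0.327% of all regions differed between the cell lines after adjustment, and 0 of the 46. The lowest p among the 46 was that of the CXCL1 region at the gene start, called in 0 of 8 and 5 of 8 libraries (Fisher's exact p = 0.0256, adjusted p = 0.811).

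In 786-O, 0.628% of the 77982 regions of that cell line were called in all 4 libraries of one SETD2 state and none of the other. At the 10 genes this held for 1 region, in RELB (chr19:45006372-45007125), with a peak in each of the 4 libraries with SETD2 and in 0 of the 4 without it. Its summits in 9 libraries of both cell lines lay within 160 bp. The percentile of its peak among all peaks of the list was 54.1 and 13.3 in WT and 31.2 and 80.8 in SETD2KO-1R. In RPTEC 2 libraries without SETD2 and 3 with it called the same region. The single RELB peak of a 786-O knockout library, SETD2KO-1 replicate 2, lay in another region and ranked at the 90.8th percentile. In RPTEC 0.496% of 65906 regions were called in one SETD2 state only, and 0 at the 10 genes. The region was not called in one SETD2 state only when just the upper 50% of peaks, an equal number per library or a minimum peak length was used.

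**Figure D3:**
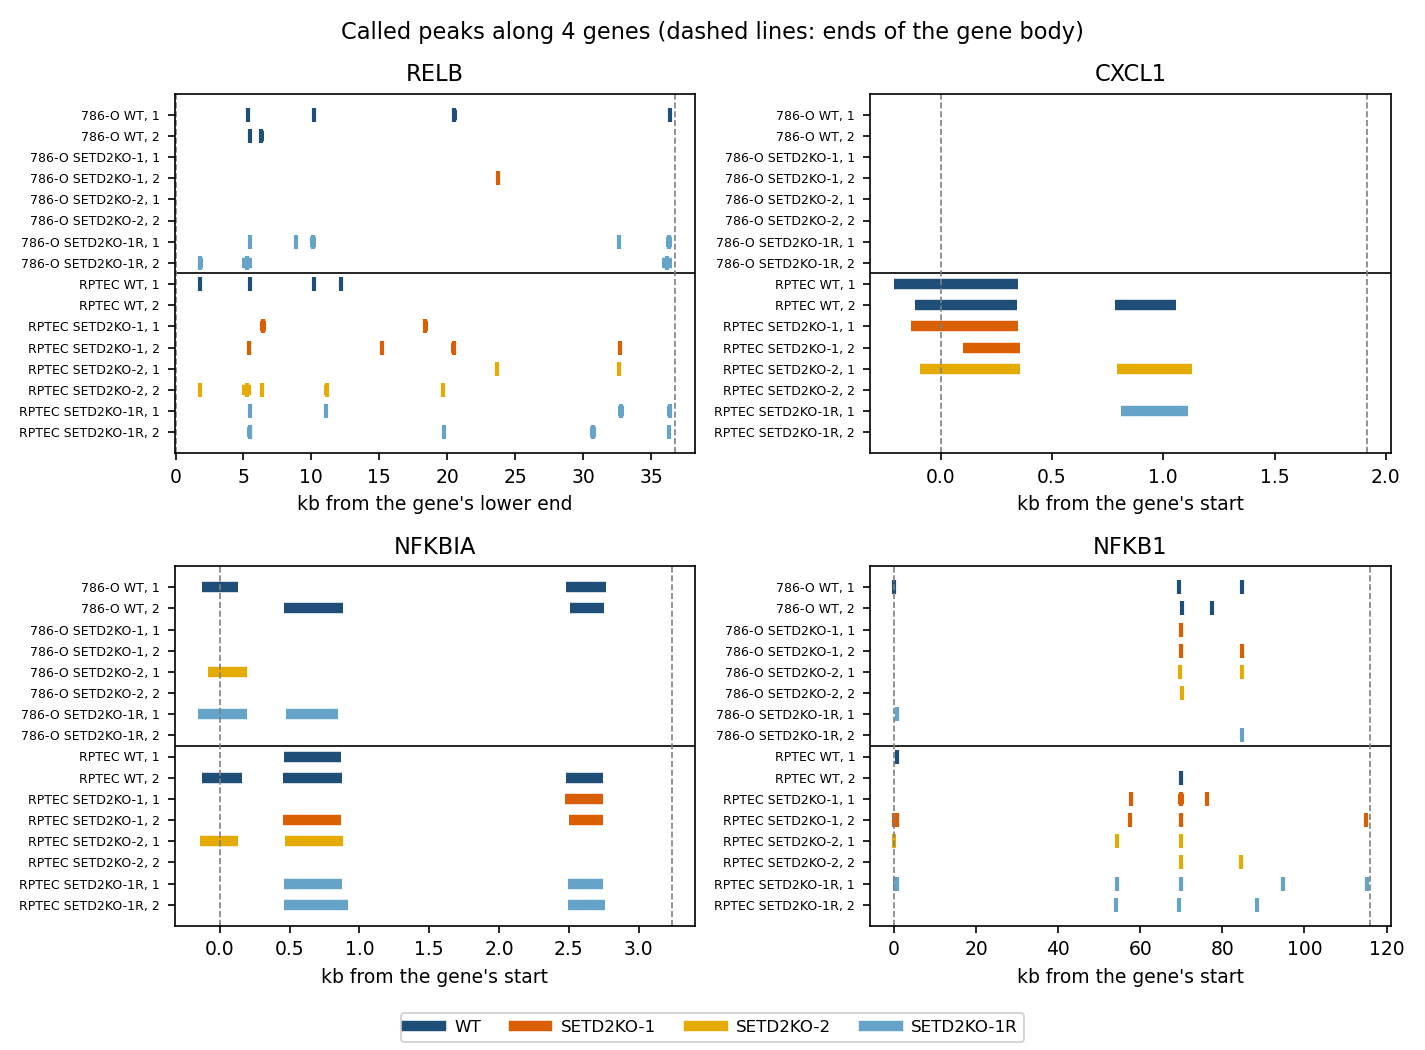
Peaks called in each library (rows, colours by SETD2 line) along 4 genes, as distance in kb from the gene's start (for RELB, whose strand is not in the promoter table, from its lower end); dashed lines are the ends of the gene body, and in the long genes RELB and NFKB1 peaks have a minimum drawn width. RELB shows a column of peaks about 5 kb in, empty in the 4 SETD2KO rows of 786-O, and the CXCL1 and NFKBIA peaks cross the gene start.

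The peaks at the start of NFKBIA had the highest median percentile of the 46 regions, 96.3. They were called in 786-O WT replicate 1, SETD2KO-2 replicate 1 and SETD2KO-1R replicate 1 and in RPTEC WT replicate 2 and SETD2KO-2 replicate 1, with percentiles from 90.2 to 99.1. All 5 summits lay 3 to 12 bp before the annotated start. The other NFKBIA regions began 456 bp and 2476 bp into the gene and were called in 2 libraries of 786-O each, against 6 and 5 of RPTEC (Fisher's exact p = 0.132 and 0.315). In 786-O neither was called in a SETD2KO library, but each was called in only 2 of the 4 SETD2-expressing ones, and no share of all regions is given for this. The IL6 peaks had their summits 160 to 162 bp after the start, where the antisense gene IL6-AS1 overlaps, and the NFKB1 regions at the start overlap NFKB1-AS1, so these peaks are uncertain as to the gene.

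Rank within the list was taken from the score, with 100 for the highest. The top peak of RELA ranked at a median of 85.5 in 786-O (58.9 to 94.8) and 87.8 in RPTEC (81.1 to 95.6), above the middle of the list in every library. That of NFKB1 ranked at a median of 49.9 in 786-O (15.7 to 84.8) and 73.1 in RPTEC (9.38 to 90.0). TNFAIP3 had medians of 54.3 (5.19 to 71.0) and 63.4 (50.6 to 85.0). Where called, CXCL1 ranked from 59.9 to 89.6, and the 2 peaks of IL6 at 82.3 and 88.1. In the test over genes with a peak in all 16 libraries, 1.56% of 4626 genes passed after adjustment, and 0 of NFKB1, RELA and TNFAIP3. TNFAIP3 was nearest, with means of 46.6 ± 23.95 and 66.7 ± 14.1 (exact permutation p = 0.0592, adjusted p = 0.317, n = 8 and 8). Between SETD2 states, 4.57% of 6394 genes in 786-O and 3.71% of 5362 in RPTEC did not overlap in rank, and none of the genes tested here, which were NFKB1, NFKB2, RELA and TNFAIP3 in 786-O and NFKB1, RELA and TNFAIP3 in RPTEC.

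**Figure D4:**
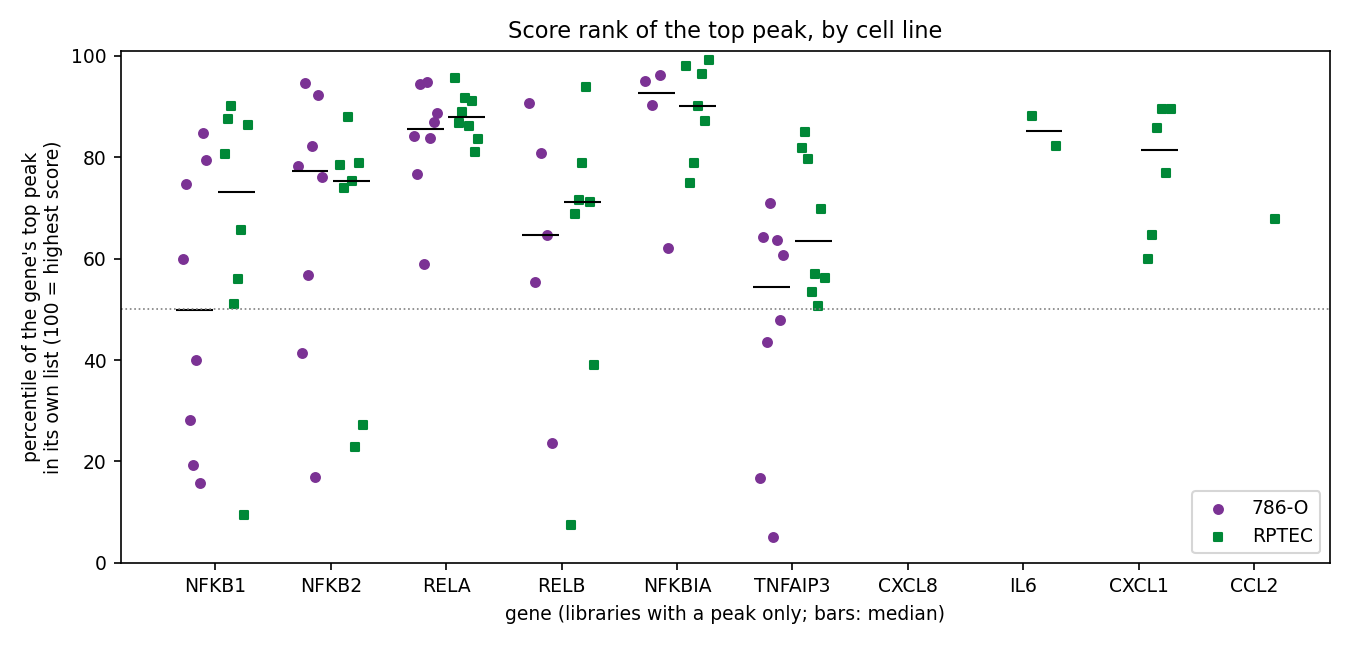
Percentile of the highest-scoring peak of each gene in its own list (y axis, 100 is the highest score; dotted line at 50), for libraries with a peak, in 786-O (circles) and RPTEC (squares); bars are medians. RELA and NFKBIA sit mostly above 75, while NFKB1 spreads from 9.38 to 90.0.

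Around the 10 genes, a list of 58 further genes of the pathway was compared in the same way. Of these, 48 had a peak in some library and 10 had none, 25 were called in all 16 libraries, and the 10 without a peak were TNFRSF1B and 9 of the 23 targets. Past the adjusted threshold, 1 of 48 had more peaks in 786-O and 1 fewer, near the 3.44% and 1.92% of all genes, and by Fisher's test of calls 0. TRAF2, an adaptor of the TNF receptors, had 7.25 ± 1.75 peaks in 786-O and 3.75 ± 1.67 in RPTEC (exact permutation p = 0.000777, adjusted p = 0.0252, n = 8 and 8). IKBKB, the catalytic subunit of the IkB kinase, had 3.12 ± 1.25 and 7.12 ± 1.81 (exact permutation p = 0.000777, adjusted p = 0.0252, n = 8 and 8). The kinase group held 10 genes, all with a peak, and the group of REL and the inhibitors 10, all with a peak, none of the latter past the threshold. The median difference over the 48 genes was 0.188 peaks, close to the 0.25 over all genes. By SETD2 status, 1 of the 48 did not overlap, and only in 786-O, where 1.52% of all genes were higher in SETD2KO without overlap, so that this count is near the background. TLR4, the receptor for lipopolysaccharide, had 1 to 4 peaks in the 4 SETD2KO libraries of 786-O and 0 in the other 4 of that cell line, and 3 to 5 against 2 to 3 in RPTEC. In the latter cell line none of the list was free of overlap. Named after their values were seen, TNF had a peak in 1 library of 786-O and all 8 of RPTEC (Fisher's exact p = 0.0014, adjusted p = 0.0632), and VCAM1 in 6 and 0 (Fisher's exact p = 0.00699, adjusted p = 0.175). Before adjustment, 7.44% of all genes were under 0.05 by that test. The 14 targets with a peak had a median difference of 0.0625 peaks, and 0 of them passed the adjusted threshold. CXCL8, CXCL3, CXCL5, CXCL6, CXCL10, CXCL11, CCL20, IL1B, CSF2 and PTGS2 were called in no library of either cell line.

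**Figure D5:**
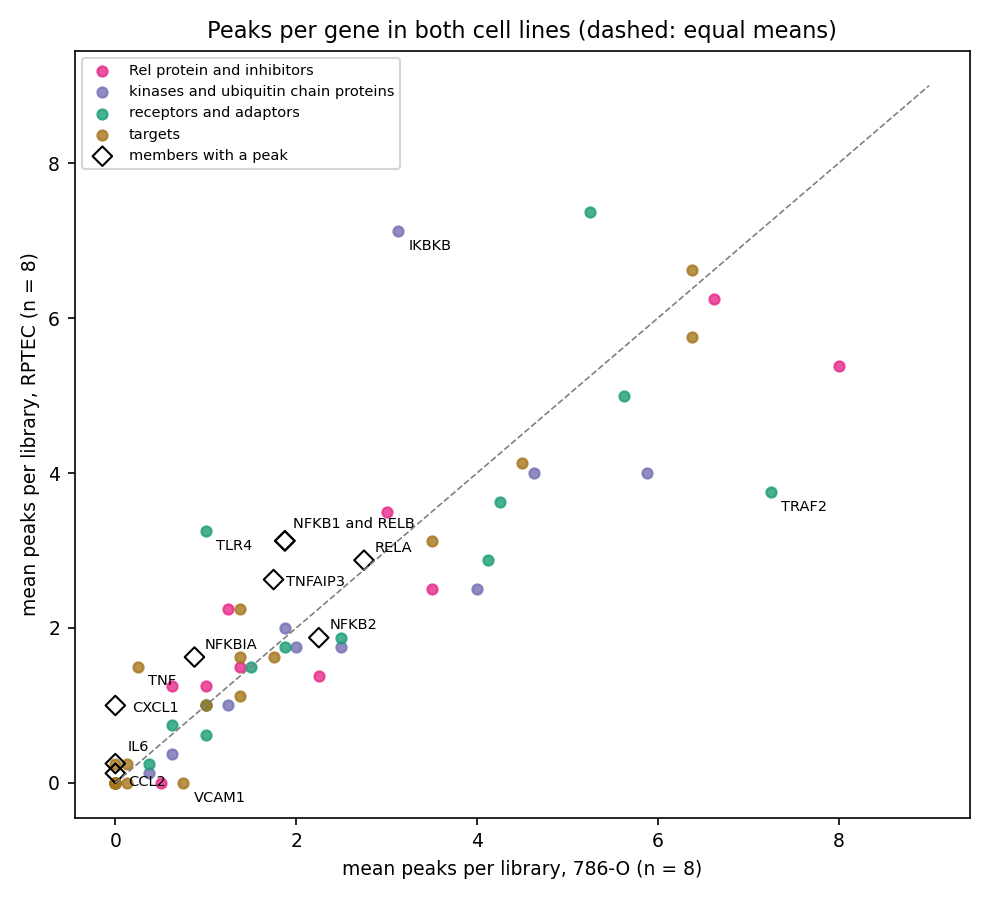
Mean peaks per library in 786-O (x axis, n = 8) and RPTEC (y axis, n = 8) for the 9 NF-kB genes with a peak (diamonds) and the 58 further pathway genes (points, coloured by role); the dashed line marks equal means. TRAF2 lies farthest below the line and IKBKB farthest above it, and 8 of the 9 diamonds lie above it.

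By the base pairs covered in each of the 16 libraries, the genes on other chromosomes whose pattern was most like each of the 6 genes called in at least 8 libraries were named, among 9724 genes so called. For RELB they were ARPC4 (r = 0.83), ATF6 (r = 0.82) and WLS (r = 0.72), and for NFKBIA CCDC80 (r = 0.86), IGF1R (r = 0.84) and CAMK1D (r = 0.83). For NFKB1 they were TACC1 (r = 0.84), HBEGF (r = 0.84) and DOCK10 (r = 0.83), and for NFKB2 MYO1C (r = 0.90), H1-10 (r = 0.90) and PNPLA2 (r = 0.90). RELA was followed by CIAO3 (r = 0.85), DCTPP1 (r = 0.81) and CNNM3 (r = 0.81), and TNFAIP3 by ABI2 (r = 0.80), AFAP1L1 (r = 0.78) and EPB41L4A (r = 0.74). These values of Pearson's r describe 16 libraries that share list length and cell line, are the highest of many, and are given with no p.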

How the data were processed

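MeRIP-seq peak lists of 16 libraries were used. Per the authors' methods, STAR served for alignment, HTSeq for counting, an added E. coli RNA for scaling, and MACS2, at a q-value of at most 0.05, for peaks of each library against Input, and the processing notes name hg38. Each deposited peak carries a score, whole numbers of unstated scale that were used here for ranks within a library alone, and its summit. Columns 7 to 9 are 0 throughout and were not used. No read counts are given, so the depth of each library is unknown beyond the minimum per sample that the authors' methods state.

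Peaks were assigned to RefSeq gene bodies (GRCh38.p14) with Python 3.11.15, NumPy 2.4.6 and pandas 2.3.3, and checked with bedtools 2.31.1. Exact permutation tests over libraries and Fisher's exact tests (SciPy 1.17.1) were two-sided and adjusted over all protein-coding genes or regions, and were tested on simulated data. Motifs were searched in RefSeq promoter windows. Genes named were the 10 members, pathway genes past the adjusted threshold or without overlap, and the 3 nearest patterns per gene, with TNF and VCAM1 added after their values were seen. The members and lists were chosen with earlier results of these data known. Exons and Input libraries were not analysed here. Alternatives are given in the closing section.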

Additional observations from a re-analysis of the deposited data

Results flagged for a closer look

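Peak numbers are small whole numbers, so a single library often stands apart, and of 46 groups of 4 libraries tested 12 had 1 library whose gap to the nearest other was the whole range of its group. The critical value used is passed by about 1 group in 20 by chance for continuous values, and its rate for such small whole numbers was not determined. For RELB these were 786-O SETD2KO-1 replicate 2 with 1 peak, where the other SETD2KO libraries had 0, and RPTEC WT replicate 2 with 0, where the other SETD2-expressing libraries had 4. For NFKBIA they were 786-O SETD2KO-2 replicate 1 with 1 peak against 0, and 786-O SETD2KO-1R replicate 2 with 0 against 2. For NFKB1 they were 786-O SETD2KO-1 replicate 1 with 1 peak against 2, and RPTEC SETD2KO-1 replicate 2 with 5 against 3. RELA had 4 peaks in RPTEC SETD2KO-1R replicate 1 against 3. TNFAIP3 had 1 against 2 in 786-O SETD2KO-2 replicate 1 and in 786-O SETD2KO-1R replicate 2. IL6 had 1 against 0 in RPTEC SETD2KO-2 replicate 2 and in RPTEC WT replicate 2, and CCL2 had 1 against 0 in RPTEC SETD2KO-1R replicate 1. No test of the difference between the cell lines' SETD2 effects passed after adjustment.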

How the results depend on the processing

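The number of genes passing the cell line test was 0, and 0 to 1 as each library was left out, the 1 being CXCL1. Over all genes 5.36% passed with all libraries, 4.86% without RPTEC SETD2KO-2 replicate 2 and 5.67% without RPTEC SETD2KO-1R replicate 2. The number of genes whose SETD2 states did not overlap in 786-O was 1 (RELB), 0 with the upper 50% of each list or the same number of peaks per library, 2 against WT only, and 1 to 2 without each library. In RPTEC it was 0, and 1 (NFKB1) against WT only. Over all genes, those without overlap rose from 301 (2.42%) to 3.29% to 4.6% without each library of 786-O, and against WT only to 1074 (8.87%) in 786-O and from 295 to 883 (7.48%) in RPTEC. For regions of one SETD2 state only in 786-O the number was 1, 0 with the upper 50%, the same number of peaks or a minimum length of peak, and 1 to 2 without each library. Over all regions it was 490, 204, 247 and 419 in these settings, and 746 to 1044 without each library of 786-O. The replicate numbers did not pair libraries (correlations of deviations from -0.353 to 0.375 over 12 pairs of lines). With the replicate block the number of genes at the smallest p in rank in 786-O was 1 (NFKB2, exact permutation p = 0.0556), against 0 without overlap in the unblocked comparison, and over all genes 536 (8.38%) against 292, and no other call changed. Of 633 comparisons of single genes with an alternative, 625 kept their call, 2 lost it and 6 gained it, and 23 of those never called changed sign. The cause of these changes was not tested. The depth of each library is unknown, and with 4 against 4 libraries too few genes reached the smallest p for any to pass adjustment.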
